A study of Drosophila melanogaster with 12 samples.

Results

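The embryo of Drosophila inherits its body axes and its germ line from messages that the mother places at the poles of the oocyte. The 8 genes described here are osk, nos and bcd, whose RNAs are the localized determinants, vas, which codes for a germ plasm protein, and exu, stau, par-1 and tsu, whose products act in bringing those RNAs to their places. They were chosen by gene name, not by their values, but with earlier results of these data known. All 8 were found among the 5954 genes in the linear RNA table. Together they are represented by 16 transcripts, of which 15 are annotated and 1, of par-1, was assembled by the authors. The current annotation gives these genes 31 transcripts, and the 16 annotated ones with no row in the table were not analysed here.

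The follicles were of stage 14, the last stage of egg development, from the wild-type Oregon R stock, with ovaries as the labelled tissue. Groups were labelled day 2 and day 12, and no other treatment, allele or age is given, nor from what event the days were counted. Each day had 3 linear RNA libraries, labelled biological replicates, and 3 circular RNA libraries, which were not used here because circular RNAs are listed by number with no host gene. The authors deposited 1 value per transcript and day, under a heading that names 3 libraries. It is taken as their mean and called so below, which the heading does not state. No SD can thus be given for any value below, and the order of neighbouring levels could not be tested. Depth is unknown.

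In the ovary, osk RNA travels on microtubules to the posterior pole, where its protein assembles the germ plasm, and bcd RNA is held at the anterior pole, where its protein, a homeodomain factor, patterns the head and thorax after egg activation. nos RNA is trapped at the posterior in the germ plasm, and the Nos protein represses hb translation there together with Pum. By stage 14 these RNAs are in place and the oocyte is largely silent in transcription, so that a level at this stage is mainly that of stored RNA. In whole follicles, fewer cells of a type and less RNA per cell cannot be told apart.

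All 8 messages were present on both days, and their order of abundance was the same. Summed over listed transcripts, exu stood first at 1042 at day 2 and 978 at day 12, in the authors' abundance unit. The abundances were then 804 and 907 for nos, 707 and 845 for osk, 139 and 102 for tsu, and 76.3 and 71.3 for vas. bcd followed at 56.6 and 63.8, par-1 at 53.3 and 58.7, and stau at 22.1 and 24.2. The unit is not stated. Values that are not per length could order the genes otherwise, and every ratio between genes below has the same limit. In the deposited unit, the ratio of osk to bcd was 12.5 at day 2 and 13.2 at day 12, and that of nos to bcd was 14.2 on both days. Of all 5954 genes, exu ranked 88 at day 2, nos 115 and osk 123, whereas stau ranked 4292. The 8 genes made up 0.461% of all listed abundance at day 2 and 0.481% at day 12.

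**Figure D1:**
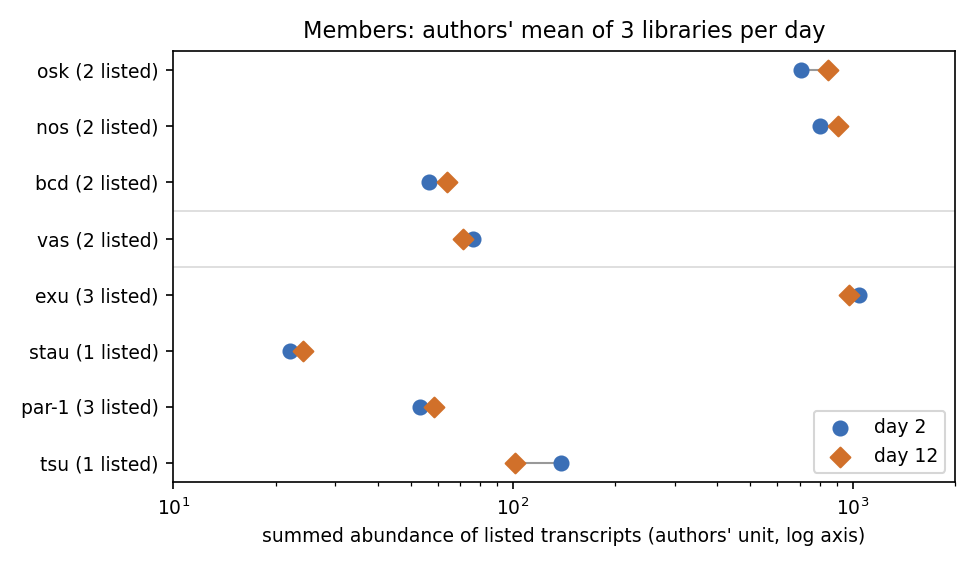
Summed abundance of the listed transcripts of each gene on a log axis, at day 2 (circles) and day 12 (diamonds), each the sum of the authors' means over 3 libraries; grey lines part the localized messages, the germ plasm gene vas and the transport genes. exu, nos and osk lie between 707 and 1042, and the widest gap between days is that of tsu, at 139 and 102.

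None of the 16 transcripts was called between the days. Their adjusted p in the authors' deposited table ranged from 0.129 for tsu to 0.819 for the lesser osk transcript, and an adjusted p under 0.05 was given to 0.177% of all 10162 listed transcripts. Before adjustment, the authors' deposited table has a p under 0.05, here called a low nominal p, for 4 of the 16, against 16.0% of all transcripts. These were the main osk transcript, with the higher mean at day 12, and both main exu transcripts and tsu, with the lower. Over all transcripts, 9.47% had a low nominal p with the higher mean at day 12 and 6.56% with the lower, and with 1 and 3 of 16 no pattern over the group was read. Counted by the most abundant transcript of each gene, 3 of the 8 had a low nominal p, against 22.5% of all genes, which splits into 13.5% with the higher and 9.07% with the lower mean at day 12. An absent call does not show equal levels.

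**Figure D2:**
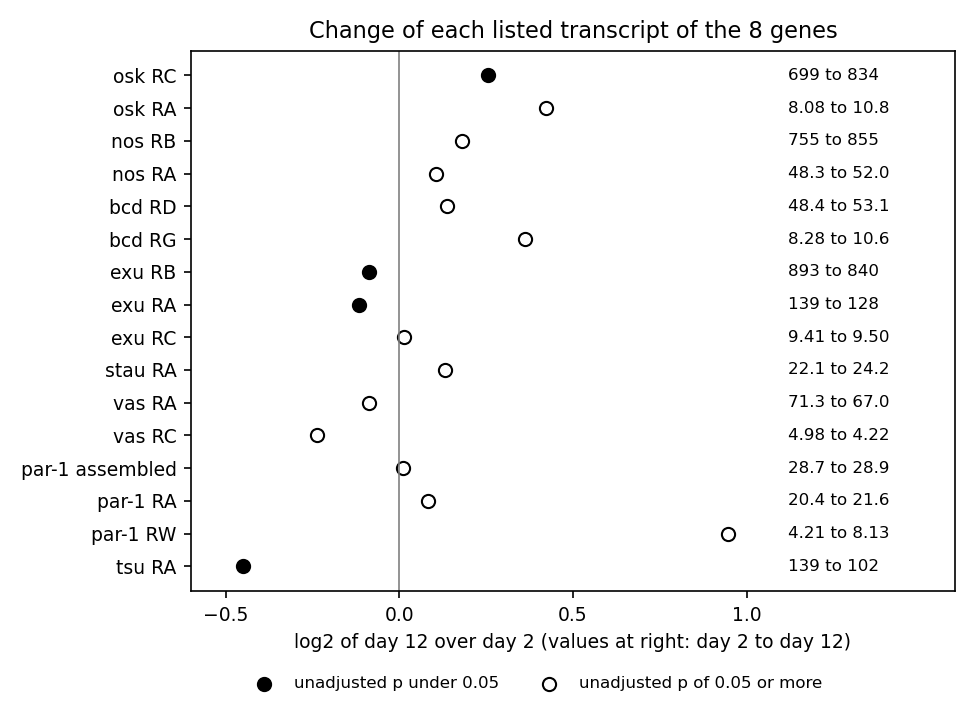
Log2 ratio of day 12 over day 2 for each of the 16 listed transcripts, with the authors' means of both days printed at the right; filled points had a low nominal p in the authors' deposited table and none passed after adjustment. The points at the ends are tsu at -0.45 and the RW transcript of par-1 at 0.95, whose values were 4.21 and 8.13.

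Of the 3 localized determinants, each had a slightly higher summed abundance at day 12. The summed log2 difference was 0.26 for osk, 0.17 for nos and 0.17 for bcd, which is 19.4%, 12.9% and 12.6% more at day 12. Over all 5952 genes with a finite ratio the median log2 difference was 0.04, and 58.5% of them were higher at day 12, so that a higher value is the commoner direction. The median was 0.08 over the 1083 genes with a summed mean of at least 100. Of these 1083, 96.7% had a lower log2 difference than osk and 81.6% a lower one than nos. Over all 5952 the shares were 93.8% and 83.3%.

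**Figure D3:**
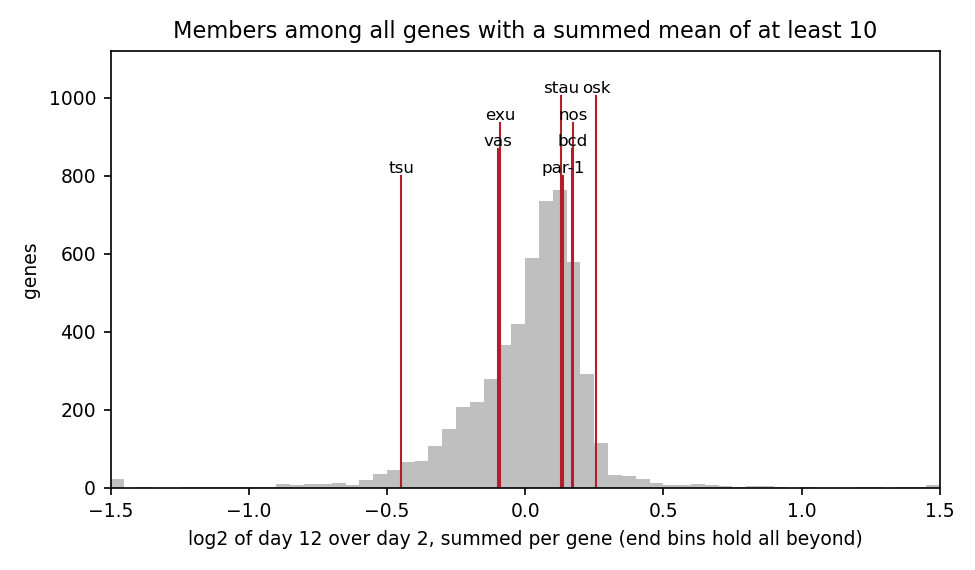
Number of genes by log2 ratio of day 12 over day 2, for the 5315 genes with a summed mean of at least 10 (grey bars, end bins holding all beyond), with the 8 genes as red lines. osk lies at 0.26 in the upper tail, tsu at -0.45 in the lower tail, and the other 6 lie between -0.10 and 0.17.

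The gene osk occupies positions 8935126 to 8938395 of chromosome arm 3R, plus strand, in BDGP6, the assembly also known as dm6. Its main listed transcript, RC, had means of 699 and 834, and the authors' deposited table gives a nominal p of 0.0070 and 0.160 after adjustment. RA was at 8.08 and 10.8, with a nominal p of 0.625 there. In the annotation used here both have the same 4 exons and the same 2869 nt, and differ in nothing but the start codon: RA codes for 606 residues, the Long Osk form known to anchor germ plasm, and RC for 468, the Short Osk form known to assemble it. No read can tell such a pair apart, so the 98.9% share of RC at day 2 is no measure of either protein, and the sum of both is the value that can be read. The 3' UTR of osk is 1028 nt long. A separate annotated gene, lncRNA:osk, covers 2251 of the 2869 exonic nt on the same strand and was not analysed here; osk RNA is known to have a role in oogenesis apart from its protein. On the other strand asRNA:CR44020 shares 162 nt with osk and was at 50.8 and 58.7. Strandedness of the libraries is not given, so reads of such overlapping pairs may be mixed.

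The gene nos, named nanos in the annotation, occupies 19157238 to 19160202 of 3R, plus strand. Transcript RB was at 755 and 855 and RA at 48.3 and 52.0. Their nominal p was 0.0702 and 0.298 in the authors' deposited table. RA keeps a stretch of 57 nt within the coding part that RB splices out, which adds 19 codons. The spliced form made up 94.0% of the sum at day 2 and 94.3% at day 12, so the balance of both forms hardly differed between the means. CG11779 on the other strand shares 269 exonic nt with nos and was at 55.4 and 55.6.

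The gene bcd occupies 6755842 to 6759466 of 3R, minus strand, with 2 of its 5 annotated transcripts in the table. RD was at 48.4 and 53.1 and RG, which is 15 nt or 5 codons longer, at 8.28 and 10.6. The authors' deposited table gives them nominal p of 0.285 and 0.137. The share of RG was 14.6% at day 2 and 16.7% at day 12. No other annotated gene overlaps bcd in the GTF used here.

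These 3 determinants have long 3' UTRs, the part of the RNA through which all of them are known to be localized. The annotated 3' UTR has 1028 nt in osk, 880 nt in nos and 834 nt in bcd, against a median of 263 nt over 7342 listed coding transcripts. It makes up 35.8% of osk, 38.4% of the main nos transcript and 33.4% of the main bcd transcript. The products that act on them from elsewhere were mixed: stau has 1885 nt, longer than 97.4% of the listed coding transcripts, while vas has 104 nt and tsu 96 nt. This is a property of the annotation and was not compared with the differences between days.

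**Figure D4:**
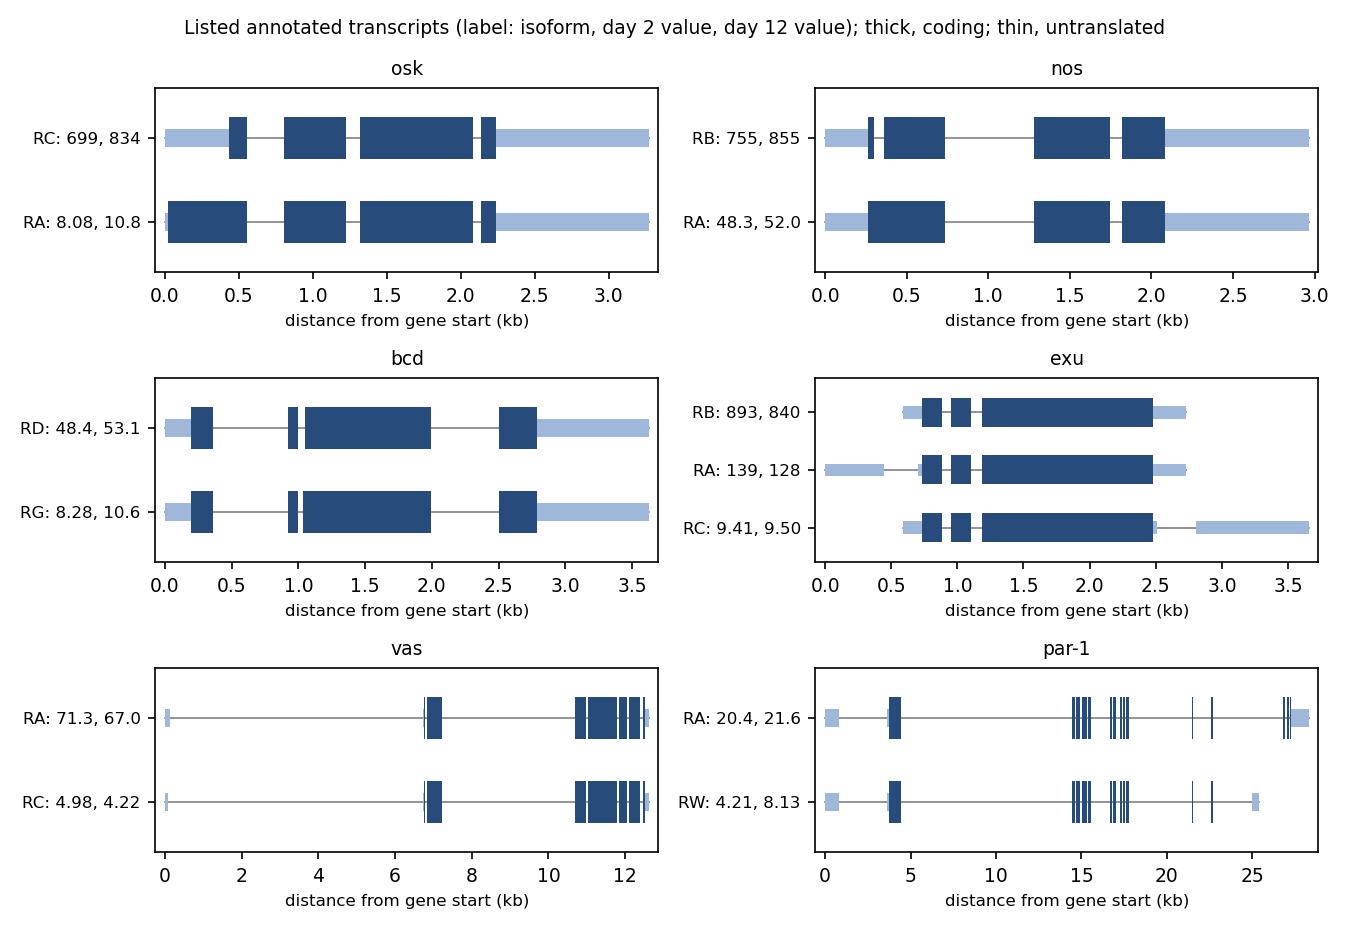
Annotated exons of the listed transcripts of 6 genes, drawn to scale as distance from the gene start in kb in the direction of transcription; thick boxes are coding, thin boxes untranslated, lines introns, and each label gives the isoform with its day 2 and day 12 value. The osk pair differs by its start codon alone, exu RC by a spliced and longer 3' UTR, and par-1 RW by its 3' end and by the bounds of 2 inner exons.

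vas codes for the DEAD-box helicase Vasa of the nuage and the germ plasm, where it is recruited by Osk. Its sum was at 76.3 and 71.3, a log2 difference of -0.10. RA was at 71.3 and 67.0 and RC, which lacks 46 nt of the 5' UTR, at 4.98 and 4.22. Both thus had the lower mean at day 12, and the authors' deposited table gives them nominal p of 0.485 and 0.591. The ratio of osk to vas was 9.27 at day 2 and 11.9 at day 12. The gene occupies 15061656 to 15074311 of 2L, plus strand. It spans vig, a gene of the other strand that shares no exonic base with it and was at 5.47 and 5.17, and it shares 563 exonic nt with solo on the same strand, which was not analysed here.

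exu codes for Exuperantia, an RNA-binding protein needed to place bcd RNA at the anterior. It was the most abundant of the 8, with a summed log2 difference of -0.09, or a difference of -6.08%. RB was at 893 and 840 and RA, which starts further upstream with another first exon, at 139 and 128. The authors' deposited table gives them nominal p of 0.0333 and 0.0247, or 0.261 and 0.237 after adjustment. RC has the same coding part with a spliced 3' UTR of 881 nt in place of 248 nt, and was at 9.41 and 9.50. It stood at 0.903% of the exu sum at day 2 and 0.971% at day 12. exu is known for RNAs with other 3' ends in the male germ line than in the female. exu occupies 20667427 to 20671083 of 2R, minus strand. On the other strand galla-1 shares 397 nt with RA and none with RB or RC, and was at 38.3 and 51.8. The ratio of exu to bcd was 18.4 at day 2 and 15.3 at day 12.

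stau codes for Staufen, the double-stranded RNA-binding protein that travels with osk RNA and later anchors bcd RNA. Of its 3 annotated transcripts, RA was listed, at 22.1 and 24.2. The authors' deposited table gives it a nominal p of 0.0982. It was the least abundant of the 8, and the ratio of exu to stau was 47.2 at day 2 and 40.5 at day 12. stau occupies 18117896 to 18125779 of 2R, minus strand.

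par-1 codes for the kinase that polarizes the oocyte's microtubules and so directs osk RNA to the posterior. Its sum was at 53.3 and 58.7, but the transcripts differed. The transcript assembled by the authors was at 28.7 and 28.9, RA at 20.4 and 21.6, and RW, with 832 codons against 938 in RA and another 3' UTR, at 4.21 and 8.13. The RW difference of 0.95 on the log2 scale is the widest among the 16, and the authors' deposited table gives it a nominal p of 0.253. The assembled transcript had a lower nominal p there, 0.112, with a log2 difference of 0.01. The deposited p thus does not follow the ratio of the means, and no source used here names the test behind it. The summed log2 difference of par-1 was 0.14, against 0.01 for its most abundant transcript and 0.27 without the assembled one. par-1 occupies 19456170 to 19485686 of 2R, plus strand, and 806 exonic nt of RA and RW are also annotated to mei-W68, which was not analysed here.

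tsu codes for Tsunagi, also called Y14, which forms with Mago a part of the exon junction complex that splicing leaves on osk RNA and that its transport needs. It had the widest summed difference of the 8 genes, from 139 on day 2 to 102 on day 12, or 1.37-fold higher at day 2. The authors' deposited table gives it a nominal p of 0.0026, or 0.129 after adjustment. Of all 5952 genes, 374 had a lower log2 difference than the -0.45 of tsu. Of the 1083 genes with a summed mean of at least 100, 29 had a lower one. Its single annotated transcript has 2 exons and 691 nt, the shortest of the 15 annotated ones, at positions 9110799 to 9111578 of 2R, plus strand. Mys45A on the other strand shares 74 nt with it and was at 38.5 and 41.2.

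Other genes of the exon junction complex were measured as well. The partner mago was at 129 and 124, and the authors' deposited table gives it a nominal p of 0.433. The ratio of tsu to mago was 1.08 at day 2 and 0.823 at day 12. The core helicase eIF4AIII, named CG7483 in the table, was at 115 and 119, RnpS1 at 58.7 and 56.7, and Acn at 43.2 and 42.3. btz, the remaining core subunit, was listed by 1 transcript assembled by the authors, at 1.09 and 1.89 with a nominal p of 0.0279 in the authors' deposited table. No test compared tsu with these genes.

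Beyond the 8 genes, 64 genes of the same pathway were taken in 6 lists, and 58 were measured. None of the 58 was called by its most abundant transcript, against 0.218% of all genes, and the lowest adjusted p was 0.0910 in the authors' deposited table, for 14-3-3zeta. A low nominal p there was given to 16, or 27.6%, near the 22.5% of all genes. The most abundant transcript was higher at day 12 in 12 of them and lower in 4. Over all genes, 13.5% had a low nominal p with the higher mean at day 12 and 9.07% with the lower. The median summed log2 difference was 0.05, beside 0.04 over all genes. By list, the share with a low nominal p ranged from 0 of 5 for bcd anchoring to 4 of 7 for par-1 and the cortex. The lists are small and were not tested.

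**Figure D5:**
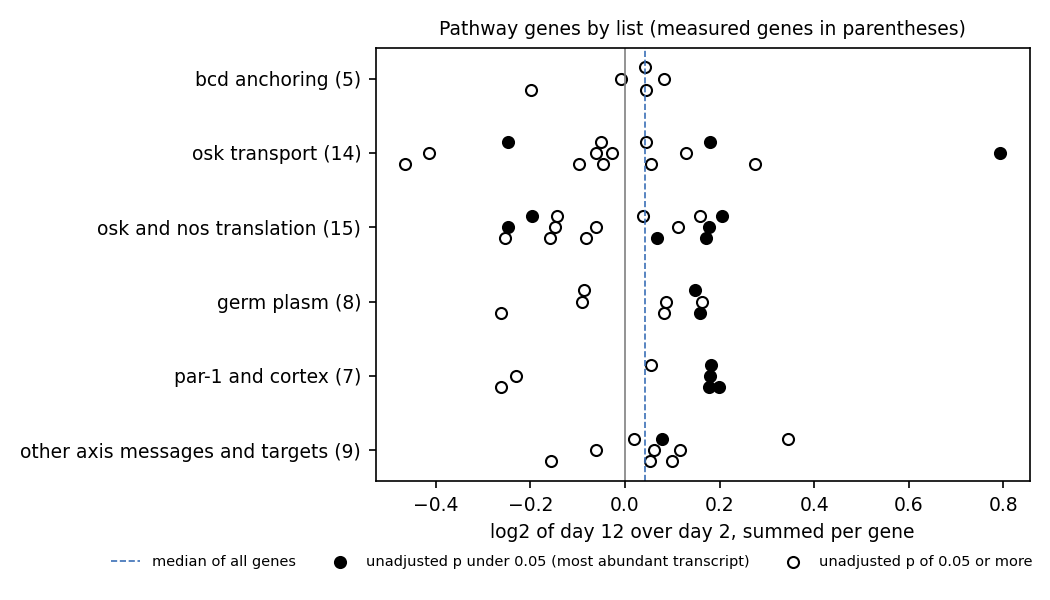
Summed log2 ratio of day 12 over day 2 for 58 genes of the same pathway in 6 lists; filled points had a low nominal p for their most abundant transcript in the authors' deposited table, none passed after adjustment, and the dashed line is the median of all genes, 0.04. The filled points of the par-1 and cortex list lie together between 0.18 and 0.20, and the point at 0.79 is btz, whose values were 1.09 and 1.89.

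In the bcd anchoring list, 0 of 5 measured genes had a low p, against 22.5% of all genes. The 5 were swa, lsn, Vps25, gammaTub37C and yps, the last at 139 and 143. swa, required for the anterior anchoring, was at 231 and 230, and lsn and Vps25 of the ESCRT-II complex at 33.3 and 34.4 and at 54.3 and 57.5. gammaTub37C, the maternal gamma-tubulin, had the lowest summed log2 difference of that list, -0.20. Its most abundant transcript alone went the other way, at 134 and 146.

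Among genes of osk transport, 3 of 14, or 21.4%, had a low p, near the 22.5% of all genes. The kinesin heavy chain Khc, which moves osk RNA, was at 79.7 and 67.1, and the authors' deposited table gives it a nominal p of 0.0169. Tm1, of which an atypical form links the motor to osk RNA, summed to 197 and 223 over 5 transcripts. The nominal p of 0.0153 in the authors' deposited table is that of its most abundant transcript alone, at 116 and 145. Which form that transcript codes for was not examined. The third was btz, given above. The hnRNP gene sqd had the highest summed log2 difference of that list among genes with a mean of at least 10, at 0.28.

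Among regulators of osk and nos translation, 6 of 15 had a low p, of which 4 had the higher and 2 the lower mean at day 12, against 22.5% of all genes, or 13.5% higher and 9.07% lower. bru1, the repressor of osk translation, summed to 555 and 627, while its most abundant transcript alone had a log2 difference of 1.00. The helicase me31B summed to 2823 and 3178, lost, which acts in nos localization, to 641 and 739, and the poly(A) polymerase gene wisp to 112 and 117. The lower pair was tral at 577 and 503 and bel at 63.6 and 53.6. cup, which holds osk translation back with Bru1, had the lowest summed log2 difference of that list, -0.25.

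Of the germ plasm genes, 2 of 8, or 25%, had a low p, near the 22.5% of all genes. Both had the higher mean at day 12, against 13.5% of all genes with a low p and the higher mean. They were AGO3 at 203 and 225 and CycB, with a summed log2 difference of 0.16. csul, an arginine methyltransferase that modifies germ plasm proteins, was at 50.5 and 56.5. The chaperone Hsp83, whose RNA is protected in the germ plasm, was at 2006 and 1673, and the authors' deposited table gives a nominal p of 0.103.

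For par-1 and the cortex, 4 of 7 had a low p, all with the higher mean at day 12, against 22.5% of all genes with a low p and 13.5% with a low p and the higher mean. They were 14-3-3zeta at 607 and 697, 14-3-3epsilon at 649 and 734, par-6 at 54.2 and 61.5, and l(2)gl at 93.9 and 106. The 14-3-3 proteins bind what Par-1 phosphorylates, such as Baz, and baz itself was at 18.3 and 15.2. The median summed log2 difference of the list was 0.18, beside 0.04 over all genes.

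In the list of other axis messages, 1 of 9 had a low p, against 22.5% of all genes. This was tor, the terminal receptor, by a transcript listed at 0 at day 12, while the gene summed to 67.3 and 71.1. hb, the target of Nos, was at 32.7 and 33.1, and cad, whose translation Bcd represses, at 104 and 111. spz, the Toll ligand gene, had the highest summed log2 difference of that list, 0.34, and the protease gene ea the lowest, -0.16.

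By abundance on both days, the nearest of the 58 genes was measured as a distance in log2 values over the 2 day means. It was pgc, a germ plasm RNA, for osk at 0.19 and for nos at 0.35. For bcd it was par-6 at 0.08, for par-1 Vps25 at 0.04, for vas Khc at 0.11, for stau glo at 0.26 and for tsu mago at 0.30. exu had no close neighbour, with pgc at 0.70.

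Markers of the follicle's cell types were also read. All 7 fixed germline markers, osk, nos and vas among them, were measured, and their sum was 3889 at day 2 and 4311 at day 12. CycB, nos and osk made up most of it and were higher at day 12, as were otu and bam. The markers vas and alphaTub67C were lower, each with a log2 difference of -0.10. By the most abundant transcript, osk, CycB and alphaTub67C had a low nominal p in the authors' deposited table. Since osk, nos and vas are among the 8 genes, the germline sum is not independent of them. For follicle cells 5 of 14 were measured, with a sum of 325 and 103, of which the chorion gene Cp15 made up 254 and 20.8. Yp1, Yp2 and Yp3 were also lower and Ilp8 was higher, at 50.1 and 80.1. Of the markers of muscle 0 of 5 were matched, of haemocytes 0 of 3 and of fat body 0 of 3. The follicle cell sum moved with the day, and its part in the differences of the 8 genes was not tested.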

How the data were processed

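Linear RNA of stage 14 follicles was measured in 6 libraries, 3 per day, grouped by title. The submitters' processing notes name DESeq2, HISAT2, STAR and StringTie and the build dm6, without versions or roles. The authors deposited a signal value per transcript and day, which per the file headers stands for 3 libraries together, and a p-value with an adjusted p-value, which matches the Benjamini-Hochberg method run on the whole table of 10162 transcripts. No listed transcript had both day means under 0.683.

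For each gene, listed transcripts were added up within a day, and the log2 ratio of day 12 over day 2 was computed with no pseudocount (Python 3.11.15, pandas 2.3.3), after a check on simulated tables. A call is an adjusted p under 0.05. Directions were read from the day means. No test across libraries was made, since single libraries were not used here; depth, and so precision, is unknown. Transcript structures and coordinates come from Ensembl release 115 of BDGP6. Pathway genes were named where their most abundant transcript had an unadjusted p under 0.05 or where they had the highest or lowest log2 ratio of a list with a mean of at least 10; a few more were named after their values were seen. The members and lists were chosen with earlier results of these data known. Alternatives were other pseudocounts, low-value filters, transcript choices and scalings.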

Additional observations from a re-analysis of the deposited data

How the results depend on the processing

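The summed log2 difference kept its sign for all 8 genes in 64 of 64 alternatives (pseudocounts of 0.1 and 1, transcripts with a mean of at least 1 or 10, the most abundant or annotated transcripts alone, scaling to the listed sum, centring on the median gene). In 62 it moved by under 0.1. Both exceptions were par-1, at 0.011 by its most abundant transcript and 0.27 by annotated transcripts alone, since the assembled transcript holds 53.8% of its day 2 sum. Part of these counts was fixed in advance. The filter at a mean of 1 removed no transcript of the 8 genes. Annotated transcripts alone changed par-1 only, and no transcript choice could change stau or tsu, with 1 listed transcript each. Scaling and centring shifted all genes by the same amount, under 0.1. tsu ranged from -0.49 to -0.45 and osk from 0.21 to 0.26. By the nominal p of the authors' deposited table, 4 in place of 0 transcripts of the 8 genes and 16 in place of 0 pathway genes had a p under 0.05. The median of the pathway genes was 0.02 by the most abundant transcript and 0.05 with a mean of at least 10, and with any listed transcript 0 of them passed. No paired analysis was possible because the table holds 1 mean per day and no column of a single replicate; leaving out each replicate was not run for the same reason. Without a spread over libraries, no size of difference can be set against replicate error.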
